A study of Mus musculus with 9 samples.

Results

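The mRNAs of 7 genes of glutamate uptake, glutamine synthesis and related amino acid transport were measured in pulldowns of tagged astrocyte ribosomes. Whole brains were compared with purified brain vessels that carry astrocyte endfeet, the processes that astrocytes apply to the vessel surface. The genes were chosen by name as Slc1a1, Slc1a2, Slc1a3, Slc1a4, Glul, Slc38a3 and Slc6a11, out of 22092 genes in the count files. All mice were 2 months old, of the strain Aldh1L1 JD130, and carried the transgene tg:Aldh1L1-L10aGFP, in which the astrocyte promoter Aldh1l1 drives a GFP fusion of the ribosomal protein L10a. No group of mice without the transgene enters the comparison. In translating ribosome affinity purification (TRAP), tagged ribosomes are pulled down with an antibody against GFP together with the mRNAs they hold. Each of 3 whole astrocyte TRAP libraries came from the whole brain of 1 mouse, freed of choroid plexus, and each of 6 endfeet TRAP libraries came from purified brain vessels pooled from 8 mice, to which endfeet membranes stay attached.

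Glutamate released at synapses is cleared from the extracellular space mainly by sodium-driven carriers of the SLC1 family in the membrane of astrocytes. In the astrocyte, glutamine synthetase, the product of Glul, joins glutamate and ammonia to form glutamine, which leaves through carriers such as Slc38a3 and is taken back by neurons as the precursor of glutamate and GABA. Astrocytes also take up GABA, and Slc6a11 encodes a carrier of that kind.

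Libraries held 35984144 to 43521208 counts in whole astrocyte TRAP and 2319495 to 13450588 in endfeet TRAP, with endfeet library 6 the smallest. A limit of 3 counts corresponded to 0.0689 to 0.0834 CPM (counts scaled by library size) in whole astrocyte libraries and 0.223 to 1.29 CPM in endfeet libraries, which covers counting error only. Of 14 astrocyte markers, 7 were lower in endfeet TRAP and 1, the water channel gene Aqp4, was higher, and their summed level was 19748 to 20221 normalized CPM in whole astrocyte libraries and 3659 to 9589 in endfeet libraries. Aldoc alone held 10763 to 10968 normalized CPM of that sum in whole astrocyte libraries and 343 to 1064 in endfeet libraries. Markers of vessel cells moved the other way. All 10 endothelial markers were higher in endfeet TRAP (7.33 to 8.97 against 3220 to 4854 summed normalized CPM, with Ly6c1 at 0 in all whole astrocyte libraries), as were all 10 mural cell markers (36.5 to 38.0 against 3571 to 8115) and all 10 markers of fibroblasts and meninges (138 to 227 against 3495 to 7415). Choroid plexus markers summed to 124 to 1699 normalized CPM in whole astrocyte libraries and 9398 to 114285 in endfeet libraries, the last in endfeet library 1, and 7 of 8 were higher. Endfeet libraries thus also held mRNAs known as markers of cells other than astrocytes. Which of their counts came from tagged ribosomes of endfeet was not tested. Endfeet libraries 1 to 3 carry numbers of one series and endfeet libraries 4 to 6 and all whole astrocyte libraries carry numbers of another, whose meaning is not stated, so that values of endfeet libraries 4 to 6 alone are given beside the results.

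Of the 7 mRNAs, Slc1a1 and Slc38a3 were higher in endfeet TRAP, Glul was lower, and Slc1a2, Slc1a3, Slc1a4 and Slc6a11 did not pass the test. A gene was called when its p from edgeR's quasi-likelihood test, adjusted by the Benjamini-Hochberg method over all genes tested, was at most 0.05. All 7 passed the filter on low counts, and 14427 genes were tested, of which 34.6% were called, 20.7% as higher and 13.9% as lower. The median log2 fold change, endfeet over whole astrocyte, was 0.80 over the 7 mRNAs and 0.10 over all genes tested. In 3 of the 7 the endfeet libraries did not overlap the whole astrocyte libraries, namely the 3 that were called. Over all genes tested, 18.9% were higher and 23.8% lower in endfeet TRAP without overlap. These are bulk libraries, in which fewer cells of a type and less RNA per cell cannot be told apart.

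**Figure D1:**
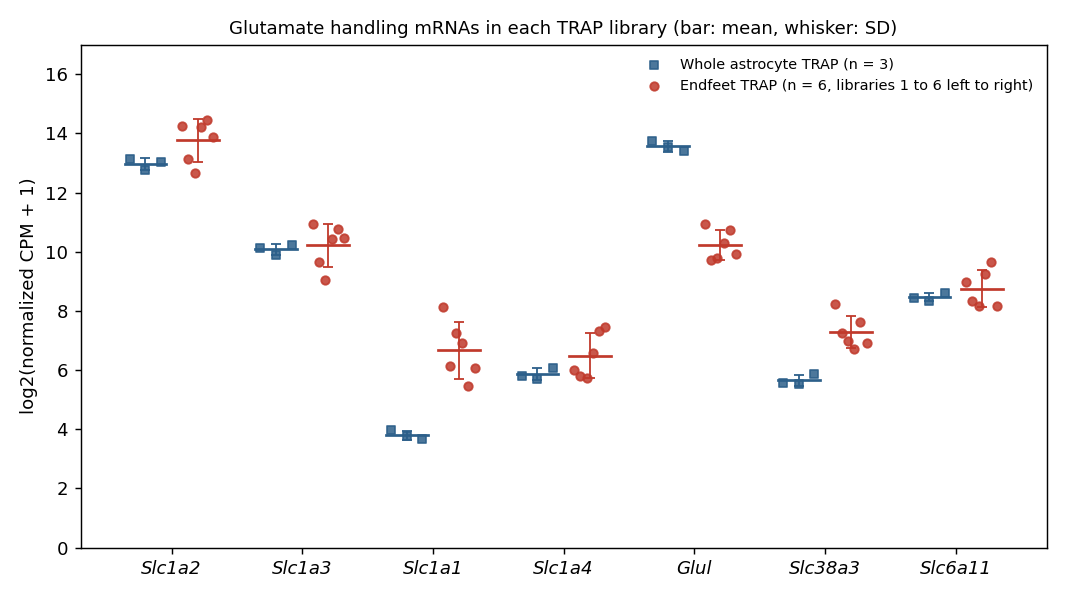
Levels of the 7 mRNAs, as log2(normalized CPM + 1) on the y axis, with a point for each library, a bar for the mean and a whisker for the SD of 3 whole astrocyte TRAP (squares) and 6 endfeet TRAP (circles) libraries. Glul is the mRNA whose endfeet libraries all lie below the whole astrocyte libraries, Slc1a1 and Slc38a3 are those whose endfeet libraries all lie above them, and the endfeet libraries are more spread than the whole astrocyte libraries for every one of the 7.

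Slc1a2 encodes Glt1, the main glutamate carrier of forebrain astrocytes, and was read from ENSMUST00000080210 (chr2:102658659-102790784, plus strand, 11 exons, 11595 bases, mm10). Its level was 8896, 6917 and 8317 normalized CPM in whole astrocyte libraries 1 to 3. In endfeet libraries 1 to 6 it was 19684, 8916, 6457, 19062, 22614 and 15111 normalized CPM. Thus 5 of 6 endfeet libraries lay above all whole astrocyte libraries, library 2 only just, while library 3 lay below them. The means were 15308 ± 6417 (SD, n = 6) and 8043 ± 1018 (SD, n = 3) normalized CPM. The log2 fold change of 0.93 (SE 0.387, 95% interval 0.17 to 1.69) had an adjusted p of 0.0800 in edgeR's quasi-likelihood test and was not called. The call changed with single libraries. Without library 2 the log2 fold change was 1.11 (edgeR adjusted p = 0.0451), without library 3 it was 1.08 (edgeR adjusted p = 0.0285), and with endfeet libraries 4 to 6 alone it was 1.10 (edgeR adjusted p = 0.00804). With all libraries kept, it also passed in limma voom with group weights, with the number series as a covariate and after thinning to equal depth. Slc1a2 held 0.725% to 0.915% of the counts of the whole astrocyte libraries and 0.739% to 2.28% of those of the endfeet libraries.

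Slc1a3 encodes Glast, the other glutamate carrier typical of astrocytes (ENSMUST00000005493, chr15:8634124-8710764, minus strand, 10 exons, 4163 bases). Whole astrocyte libraries held 1127, 940.7 and 1202 normalized CPM of it. Endfeet libraries 1 to 6 held 1969.6, 796.5, 529.5, 1373, 1761 and 1428 normalized CPM. Again libraries 2 and 3 were the lowest, below all whole astrocyte libraries, and the other 4 lay above them. The means were 1310 ± 553 (SD, n = 6) and 1090 ± 134 (SD, n = 3) normalized CPM, and the log2 fold change of 0.27 (SE 0.366, 95% interval -0.45 to 0.98) was not called (edgeR adjusted p = 0.607). It was 0.35 with endfeet libraries 4 to 6 alone (edgeR adjusted p = 0.182). The direction turned, to -0.31 (edgeR adjusted p = 0.681), when ENSMUST00000157065, a shorter transcript without the last exon, stood for the gene.

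Slc1a1 encodes Eaac1, a glutamate and cysteine carrier best known from neurons (ENSMUST00000025875, chr19:28835074-28913960, plus strand, 12 exons, 3800 bases). It was scarce in whole astrocyte libraries, at 14.6, 12.7 and 11.6 normalized CPM. Endfeet libraries 1 to 6 held 280.5, 69.4, 152, 118, 43.6 and 66.7 normalized CPM. Every endfeet library lay above every whole astrocyte library, with library 1 the highest and library 5 the lowest, a spread of 6.43 times between them. The log2 fold change was 3.23 (SE 0.597, 95% interval 2.06 to 4.40), or 9.38-fold, from 13.0 ± 1.52 (SD, n = 3) to 122 ± 87.2 (SD, n = 6) normalized CPM, with an adjusted p of 0.00107 in edgeR's quasi-likelihood test. It was 2.43 with endfeet libraries 4 to 6 alone (edgeR adjusted p = 0.00476) and 2.78 without endfeet library 1 (edgeR adjusted p = 5.1e-04).

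The counts of Slc1a1 were also examined by part of the gene. Another gene, 4430402I18Rik, lies on the opposite strand, and its transcript ENSMUST00000179171 overlaps 1216 of the 3800 bases. The library kit does not mark strand, so reads of the overlap cannot be assigned to either gene. The opposite transcript held 55, 59 and 68 counts in whole astrocyte libraries, or 10.2% to 12.9% of the counts of Slc1a1. In endfeet libraries 1 to 6 it held 35, 25, 263, 401, 94 and 9 counts, or 2.34% to 27.2% of those of Slc1a1. Subtracting these counts left a log2 fold change of 3.26 (edgeR adjusted p = 0.00144). A further transcript of that gene, ENSMUST00000175647, overlaps 185 bases and held 48.6% to 58.8% of the counts of Slc1a1 in whole astrocyte and 0.936% to 68.4% in endfeet libraries, and how many of them lie in the overlap is not known. Subtracting all of them gave 4.23 (edgeR adjusted p = 0.00132). In ENSMUST00000161119, a transcript with a retained intron that shares 1297 bases with the full one and none of its last exon of 2307 bases, the log2 fold change was 2.96 (SE 1.29) and the call was lost (edgeR adjusted p = 0.109).

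**Figure D2:**
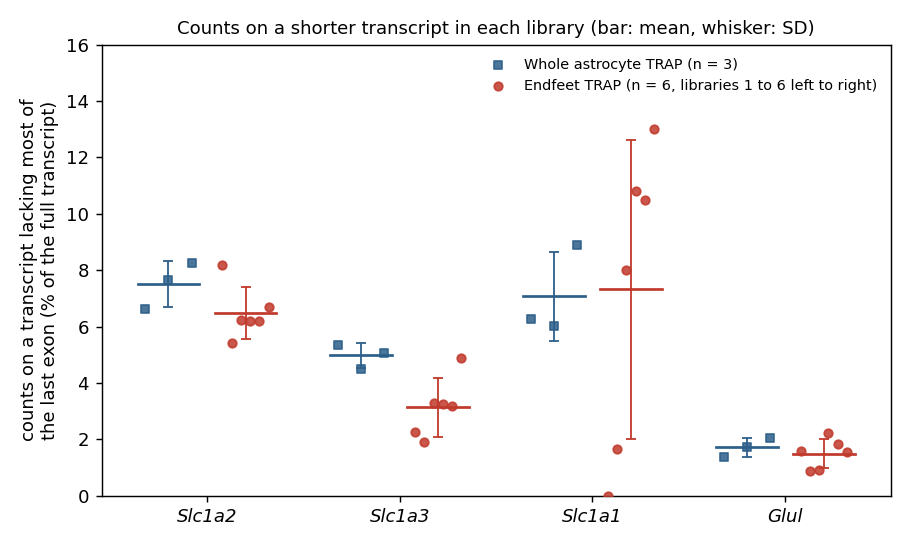
Counts on a shorter transcript that lacks most of the last exon, as a percentage of the counts on the full transcript (y axis), for Slc1a2, Slc1a3, Slc1a1 and Glul in 3 whole astrocyte TRAP (squares) and 6 endfeet TRAP (circles) libraries, with a bar for the mean and a whisker for the SD. Slc1a1 has the widest spread, with no such count in endfeet library 1 and 13.0% in endfeet library 6, while the shares of the other 3 mRNAs reach at most 8.24%.

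The shorter transcript held 34, 29 and 47 counts of Slc1a1 in the whole astrocyte libraries. In endfeet libraries 1 to 6 it held 0, 10, 186, 159, 62 and 19 counts. Endfeet library 1, which had the highest level of Slc1a1, thus had no count on it. In endfeet libraries 3 to 6 its counts equalled 8.02% to 13.0% of those on the full transcript, against 6.03% to 8.88% in whole astrocyte libraries. Endfeet library 1 also had the highest sum of choroid plexus markers (114285 normalized CPM), and endfeet library 5, with the lowest level of Slc1a1, had the lowest (9398). In endfeet libraries 2, 3, 4 and 6 the sums were 51194, 31316, 18444 and 24345 normalized CPM. Slc1a1 was at 69.4, 152, 118 and 66.7 normalized CPM in these libraries. Vessel cell markers rose beside Slc1a1 in all endfeet libraries, as given above, and the part of either in the level of Slc1a1 was not tested. Of 10 neuronal markers, 1 was higher and 3 were lower, and their summed level was 3822 to 4442 normalized CPM in whole astrocyte and 1262 to 2116 in endfeet libraries.

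Slc1a4 encodes Asct1, a carrier of the same family that exchanges small neutral amino acids such as serine (ENSMUST00000109594, chr11:20302180-20332713, minus strand, 8 exons, 3926 bases). Its level was 54.9, 50.4 and 66.8 normalized CPM in whole astrocyte libraries. It was, in the order of endfeet libraries 1 to 6, 63.0, 54.7, 52.6, 94.7, 160.2 and 174 normalized CPM. The first 3 endfeet libraries fell within the whole astrocyte range and the last 3 lay above it. The means were 99.9 ± 54.4 (SD, n = 6) and 57.4 ± 8.47 (SD, n = 3) normalized CPM, and the log2 fold change of 0.80 (SE 0.444, 95% interval -0.07 to 1.67) was not called (edgeR adjusted p = 0.183). With endfeet libraries 4 to 6 alone it was 1.19 and passed the test (edgeR adjusted p = 0.0169), and with the number series as a covariate it was 1.32 (edgeR adjusted p = 0.0127).

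Of the 7 mRNAs, only Glul was called lower. It was read from ENSMUST00000086199 (chr1:153899944-153909723, plus strand, 7 exons, 2792 bases). Whole astrocyte libraries held 13787, 11946 and 10788 normalized CPM. Endfeet libraries 1 to 6 held 1969.8, 840.0, 883, 1265, 1692 and 979 normalized CPM. Every endfeet library lay far below every whole astrocyte library, and the groups did not approach each other. The mean fell from 12174 ± 1512 (SD, n = 3) to 1272 ± 466 (SD, n = 6) normalized CPM, 9.57-fold lower, with a log2 fold change of -3.26 (SE 0.302, 95% interval -3.85 to -2.67) and an adjusted p of 4.5e-06 in edgeR's quasi-likelihood test. Of all genes tested, 307 (2.13%) fell as much or more. Glul held 1.13% to 1.42% of the counts in whole astrocyte libraries and 0.0845% to 0.171% in endfeet libraries.

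The difference in Glul did not hang on a single library. It was -3.35 on the log2 scale with endfeet libraries 4 to 6 alone (edgeR adjusted p = 1.8e-04), and from -3.47 to -3.10 with each library left out in turn. All 5 transcripts of Glul fell when each was fitted on its own, with log2 fold changes of -3.89 to -3.07. Reads on bases they share count for each of them, so these fits are not independent. Among them was ENSMUST00000139476, which shares 609 bases with the full transcript and none of its last exon of 1860 bases, at -3.23 (edgeR adjusted p = 2.1e-04). It held 1.37% to 2.05% of the counts of the full transcript in whole astrocyte libraries and 0.862% to 2.24% in endfeet libraries, ranges that overlap. Beside the fall of Glul, 7 of 14 astrocyte markers were lower, 6 were not called and Aqp4 was higher, with a median log2 fold change of -1.15 over the 14. Oligodendrocyte markers summed to 690.0 to 697 normalized CPM in whole astrocyte libraries and 253 to 567 in endfeet libraries, with 1 of 10 called lower and none higher, and their part in the level of Glul was not tested.

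Slc38a3 encodes Snat3, a glutamine carrier that works in both directions and is known in astrocytes as a route of glutamine release (ENSMUST00000167868, chr9:107650634-107659528, minus strand, 15 exons, 3151 bases). Its level in whole astrocyte libraries was 46.5, 45.1 and 57.9 normalized CPM. In endfeet libraries 1 to 6 it was 297, 153, 125, 104, 196 and 121 normalized CPM. All endfeet libraries lay above all whole astrocyte libraries, with library 1 again the highest. The mean rose 3.33-fold, from 49.9 ± 6.996 (SD, n = 3) to 166 ± 72.0 (SD, n = 6) normalized CPM, with a log2 fold change of 1.74 (SE 0.376, 95% interval 0.999 to 2.47) and an adjusted p of 0.00315 in edgeR's quasi-likelihood test. It was 1.36 with endfeet libraries 4 to 6 alone (edgeR adjusted p = 0.0107) and 1.48 without endfeet library 1 (edgeR adjusted p = 0.00192). The vessel and choroid plexus markers given above rose in the same libraries, and their part in the level of Slc38a3 was not tested.

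Slc6a11 encodes Gat3, a GABA carrier of astrocytes (ENSMUST00000032451, chr6:114131241-114249952, plus strand, 14 exons, 4132 bases). Whole astrocyte libraries held 346, 322 and 391 normalized CPM. Endfeet libraries 1 to 6 held 500.0, 320.4, 285, 610.1, 801 and 285 normalized CPM. As many endfeet libraries lay above all whole astrocyte libraries as below them, 3 each. The means were 467 ± 210.2 (SD, n = 6) and 353 ± 34.7 (SD, n = 3) normalized CPM, and the log2 fold change of 0.40 (SE 0.350, 95% interval -0.28 to 1.09) was not called (edgeR adjusted p = 0.397). With endfeet libraries 4 to 6 alone it was 0.55 (edgeR adjusted p = 0.251).

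**Figure D3:**
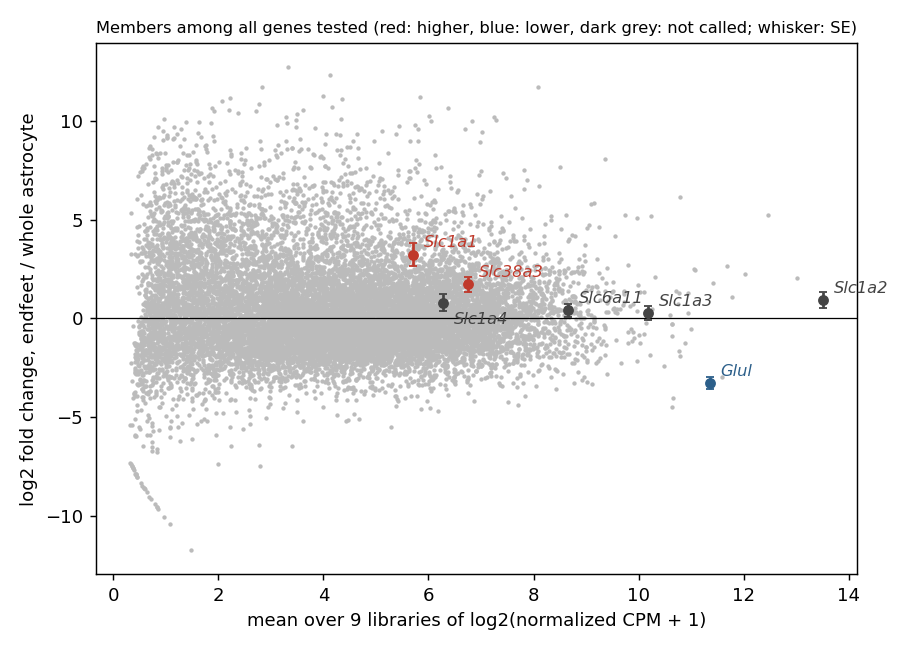
Log2 fold change of endfeet over whole astrocyte TRAP (y axis) against the mean over 9 libraries of log2(normalized CPM + 1) (x axis) for all 14427 genes tested (grey), with the 7 mRNAs named and a whisker for the SE. Glul lies at -3.26 at the abundant end of the plot, Slc1a1 at 3.23 and Slc38a3 at 1.74, and the other 4 between 0.27 and 0.93.

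The order of the 7 mRNAs changed between the groups. Levels of different genes were compared per base of transcript, as TPM (counts divided by transcript length and scaled to the same total in each library). In whole astrocyte TRAP, Glul was first at 12334 ± 1614 TPM (SD, n = 3), followed by Slc1a2 at 1962 ± 257, Slc1a3 at 740.2 ± 91.8, Slc6a11 at 242 ± 23.3, Slc38a3 at 44.7 ± 6.12, Slc1a4 at 41.3 ± 5.99 and Slc1a1 at 9.67 ± 1.20 TPM. Each lay above the next in 3 of 3 libraries, although the ranges of Slc38a3 and Slc1a4 overlapped. In endfeet TRAP, Slc1a2 was first at 4122 ± 1717 TPM (SD, n = 6), followed by Glul at 1408 ± 396, Slc1a3 at 970.2 ± 356, Slc6a11 at 358 ± 173, Slc38a3 at 161 ± 45.7, Slc1a1 at 95.9 ± 53.6 and Slc1a4 at 81.7 ± 46.6 TPM. The order of the upper 5 by TPM held in 6 of 6 libraries, whereas Slc38a3 lay above Slc1a1 in 5 and Slc1a1 above Slc1a4 in 4 of 6, so that the last pairs were within their spread. The place of Glul above Slc1a3 depended on the division by length. Without it, Slc1a3 lay above Glul in endfeet libraries 4, 5 and 6, with means of 1310 and 1272 normalized CPM. Counts are not even along a transcript, so TPM depends on the length used.

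Dividing each count by that of Slc1a2 in the same library gives a ratio that does not depend on the scaling of libraries. Per base of transcript, Glul was 6.44, 7.17 and 5.39 times Slc1a2 in whole astrocyte libraries. The value in endfeet libraries 1 to 6 was 0.42, 0.39, 0.57, 0.28, 0.31 and 0.27 times Slc1a2. Glul therefore exceeded Slc1a2 in all whole astrocyte libraries and stayed under it in all endfeet libraries. On the log2 scale of counts the ratio was 0.60 ± 0.209 (SD, n = 3) in whole astrocyte and -3.53 ± 0.415 (SD, n = 6) in endfeet TRAP. The difference of -4.13 had a two-sided exact permutation p of 0.0119, the smallest that the 84 ways of placing 9 libraries in the 2 groups allow, and an adjusted p of 0.0357 over the 6 ratios compared by exact permutation.

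Slc1a3 also fell relative to Slc1a2. Slc1a2 held 7.89, 7.35 and 6.92 times the counts of Slc1a3 in whole astrocyte libraries. In endfeet libraries 1 to 6 it held 9.99, 11.2, 12.2, 13.9, 12.8 and 10.6 times those counts. The groups did not overlap, and the log2 ratio of Slc1a3 to Slc1a2 was -2.88 ± 0.0949 (SD, n = 3) and -3.55 ± 0.178 (SD, n = 6). The difference of -0.67 had an exact permutation p of 0.0119 (adjusted p = 0.0357). It did not pass when the geometric mean of the other 6 mRNAs was the reference, with a difference of -0.36 (exact permutation adjusted p = 0.217). That reference includes Glul, whose fall lowers it in endfeet TRAP. With endfeet libraries 4 to 6 alone the differences were -4.47 for Glul, -0.74 for Slc1a3, 1.22 for Slc1a1, 0.22 for Slc38a3, -0.66 for Slc6a11 and 0.06 for Slc1a4, a design of 3 against 3 libraries that cannot reach the threshold and was not tested.

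The other 4 ratios did not pass after adjustment. For Slc1a1 the difference in the log2 ratio to Slc1a2 was 2.15, short of the threshold (exact permutation p = 0.0357, adjusted p = 0.0714), and its endfeet ratios ranged from -9.02 to -5.40 against -9.48 to -9.08. With the geometric mean of the other mRNAs as the reference the difference was 2.93 and passed (exact permutation adjusted p = 0.0278). That reference, also used below for Slc38a3 and Slc1a4, includes Glul, whose difference of -4.13 lowers it in endfeet TRAP. A reference without Glul was not tested. With counts summed over transcripts the difference of Slc1a1 to Slc1a2 was 2.28 (exact permutation adjusted p = 0.0238), whereas it was 1.22 with endfeet libraries 4 to 6 alone. The difference was 0.85 for Slc38a3 (exact permutation p = 0.0952, adjusted p = 0.114), and it was 1.40 against the geometric mean (exact permutation adjusted p = 0.0278) but 0.22 with endfeet libraries 4 to 6 alone. It was -0.51 for Slc6a11 (exact permutation p = 0.0714, adjusted p = 0.107). For Slc1a4 it was -0.17 (exact permutation p = 0.667, adjusted p = 0.667), and its sign turned with the reference, to 0.22, and with endfeet libraries 4 to 6 alone, to 0.06.

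**Figure D4:**
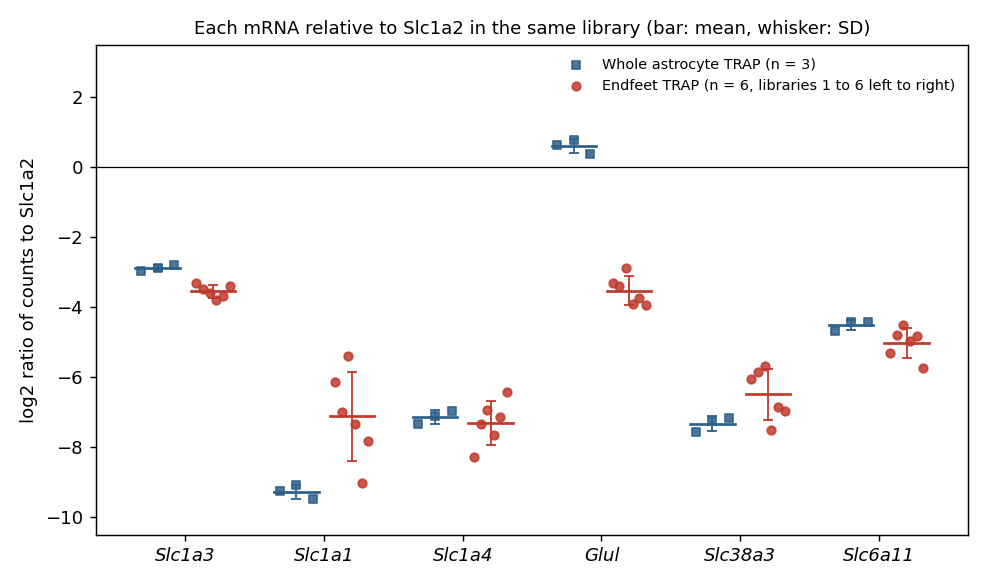
Log2 ratio of the counts of 6 mRNAs to those of Slc1a2 in the same library (y axis), with a point for each of 3 whole astrocyte TRAP (squares) and 6 endfeet TRAP (circles) libraries, a bar for the mean and a whisker for the SD. The groups are apart for Glul, at 0.38 to 0.79 against -3.95 to -2.87, and for Slc1a3, at -2.98 to -2.79 against -3.79 to -3.32, and also for Slc1a1.

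Some of the 7 mRNAs varied alike across the libraries. The root mean square difference between 2 genes over the 9 libraries, of log2(normalized CPM + 1) after each gene was centred on its mean, was used as the measure of likeness, among 10312 other genes with more than 50 normalized counts in both groups. Since all genes share the same libraries, it is a description only. Slc1a2 and Slc1a3 were 0.34 apart, Slc1a2 and Slc6a11 0.41, and Slc1a3 and Slc6a11 0.42, while Glul was 1.67 to 3.01 from the other 6. The median distance from Slc1a2 of the genes compared was 1.16. Closest to Slc1a2 were Scd2, a fatty acid desaturase gene, at 0.13 and Gpm6b, a membrane proteolipid gene, at 0.17. Closest to Glul were Echs1, which encodes an enzyme of mitochondrial fatty acid oxidation, at 0.28 and Mid1ip1 at 0.29. For Slc38a3 they were Ctsl, which encodes a lysosomal protease, at 0.17 and the phosphate carrier gene Slc20a2 at 0.20. Slc1a1 had no gene as near, the closest being Dchs1 at 0.36 and Sun1 at 0.37. The remaining nearest pairs were Scg3 (0.20) and Dnal1 (0.23) for Slc1a3, Tmem185a (0.19) and Rps6kb2 (0.28) for Slc1a4, and Paqr7 (0.15) and Nepro (0.17) for Slc6a11.

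Around the 7 mRNAs, 37 other genes of glutamate, glutamine and GABA handling were examined. Of the 36 that could be tested, 8 were called higher, 10 lower and 18 not at all, so that 50% were called, beside 34.6% of all genes tested. By direction, 22.2% were higher, beside 20.7% of all genes tested, and 27.8% were lower, beside 13.9%. Their median log2 fold change was -0.00042, against 0.10 over all genes tested. Slc1a7 was not tested, with 1 count in the whole astrocyte libraries and 0 in the endfeet libraries. With endfeet libraries 4 to 6 alone, 8 were higher and 9 lower.

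The 8 genes called higher, a share near that of all genes tested, were carriers at the cell membrane or their subunits. All 3 system A and glutamine carriers were higher, beside 20.7% of all genes tested. Among them were Slc38a1, with a log2 fold change of 2.54 (94.7 ± 6.13 to 550.6 ± 165.0 normalized CPM, SD, edgeR adjusted p = 7.9e-05), and Slc38a2, with 2.44 (edgeR adjusted p = 2.5e-05). Slc38a5 had 4 counts in 1 whole astrocyte library and none in the other 2, against 43.6 ± 23.9 normalized CPM (SD, n = 6) in endfeet TRAP, and no fold is given for it. Slc1a5, which encodes the neutral amino acid carrier Asct2, went from 0.450 ± 0.112 (SD, n = 3) to 15.5 ± 9.002 (SD, n = 6) normalized CPM, a log2 fold change of 5.08 (edgeR adjusted p = 8.2e-04), while Slc1a6, a glutamate carrier known from Purkinje cells, was not called (0.66, edgeR adjusted p = 0.743). Slc7a11, which exports glutamate in exchange for cystine, rose by 3.19 on the log2 scale (edgeR adjusted p = 2.3e-05) and its partner subunit Slc3a2 by 1.27 (edgeR adjusted p = 0.00472). The GABA and betaine carrier genes Slc6a12 and Slc6a13 rose by 3.66 and 4.15 (edgeR adjusted p = 0.00304 and 2.8e-05). The endothelial, mural, meningeal and choroid plexus markers given above were higher in the same libraries, as were 7 of 10 markers of microglia and macrophages (20.3 to 24.3 against 214 to 423 summed normalized CPM) and 5 of 8 ependymal markers (25.9 to 37.5 against 48.9 to 279), and their part in these levels was not tested.

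Of 9 enzymes of glutamate and glutamine metabolism 3 (33.3%) were lower, beside 13.9% of all genes tested. None of the 9 was higher, beside 20.7% of all genes tested. In either direction 34.6% of all genes tested were called. The lower 3 were glutamate dehydrogenase Glud1, at -2.24 on the log2 scale (1250.1 ± 30.03 to 264 ± 65.5 normalized CPM, SD, edgeR adjusted p = 1.6e-05), and the alanine transaminases Gpt2 at -3.23 (edgeR adjusted p = 6.9e-05) and Gpt at -2.90 (edgeR adjusted p = 0.0397). The other 6 were not called, among them the aspartate transaminases Got1 at -1.10 (edgeR adjusted p = 0.108) and Got2 at 0.03 (edgeR adjusted p = 0.972). Of 4 mitochondrial carriers, the glutamate carriers Slc25a18, at -3.50 (481 ± 53.6 to 42.2 ± 31.5 normalized CPM, SD, edgeR adjusted p = 0.00214), and Slc25a22, at -1.72 (edgeR adjusted p = 0.0392), were lower, and the aspartate and glutamate exchangers Slc25a12 at -0.03 and Slc25a13 at 0.71 were not called. The GABA-degrading enzymes Abat, at -1.40 (edgeR adjusted p = 0.00298), and Aldh5a1, at -1.56 (edgeR adjusted p = 0.0195), were lower. The GABA-synthesizing enzymes Gad1 and Gad2 were not called, at -1.42 (edgeR adjusted p = 0.0523) and -1.36 (edgeR adjusted p = 0.0635), with all endfeet libraries below all whole astrocyte libraries, as for 23.8% of all genes tested. The sums of astrocyte and neuronal markers given above were lower in the same libraries, and their part in these levels was not tested.

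In glutathione synthesis, which uses glutamate and cysteine, both subunits of the first enzyme were lower, Gclc at -0.92 (edgeR adjusted p = 0.0372) and Gclm at -1.71 (edgeR adjusted p = 0.00123), beside the rise of the cystine exchanger. Slc9a3r1, which encodes a scaffold that binds Glast, was lower at -4.19 (493 ± 31.8 to 26.7 ± 13.9 normalized CPM, SD, edgeR adjusted p = 3.0e-05), while Ajuba, which binds Glt1, at 2.36 (edgeR adjusted p = 0.0804) and Arl6ip5, which binds Eaac1, at 1.16 (edgeR adjusted p = 0.251) were not called. The metabotropic glutamate receptors Grm3 at 0.09 and Grm5 at 0.22 and the 3 vesicular glutamate carriers, between -0.51 and 0.86, were not called either. In place of 10, the number of lower genes of the list was 6 without any one whole astrocyte library, 7 without endfeet library 3 and 7 with the number series as a covariate. Over all genes tested, the number lower was 1171 to 1217, 1859 and 1670 in the same settings, in place of 2006. Other settings gave more lower genes of the list, 15 with limma voom and group weights and 12 without endfeet library 1. Over all genes tested, 4485 and 2642 were lower in these settings.

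**Figure D5:**
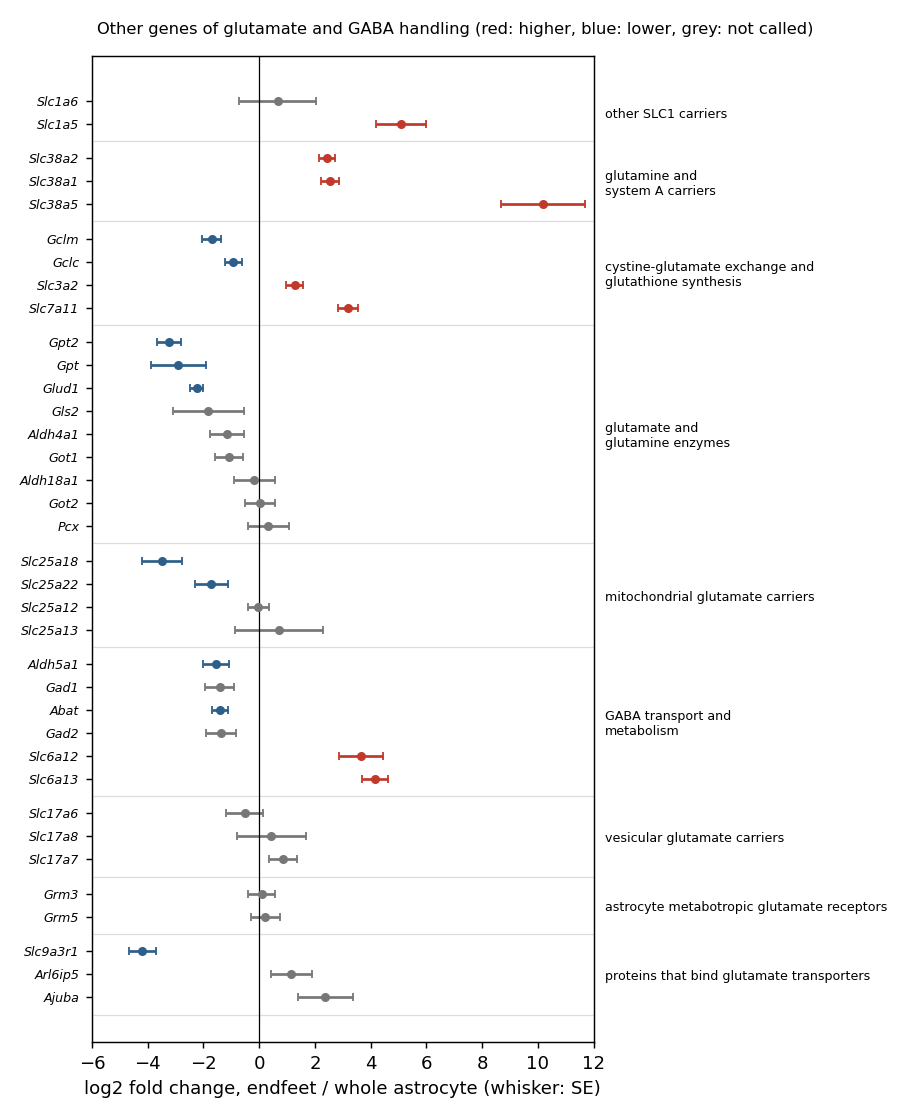
Log2 fold change of endfeet over whole astrocyte TRAP (x axis, whisker for the SE) for 36 other genes of glutamate, glutamine and GABA handling, grouped by role, with genes called higher in red, lower in blue and not called in grey. The 8 genes called higher (22.2%, a share near the 20.7% of all genes tested) are membrane carriers or their subunits. The value of Slc38a5 rests on 4 counts in whole astrocyte libraries. Of the 9 enzymes 3 (33.3%) are lower, beside 13.9% of all genes tested, and none is higher, beside 20.7%.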

How the data were processed

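RNA recovered by the pulldown of GFP-tagged ribosomes was sequenced in 9 libraries. The authors amplified the RNA with NuGEN's Ovation kit, sequenced reads of 50 bp, aligned them to mm10 by means of Bowtie, kept uniquely aligned reads, and counted overlaps with Ensembl transcripts by HTSeq 0.5.3, the version per the labels. Deposited were the raw counts of each transcript, not normalized, filtered or pooled. Replicates are separate brains or pools. Of 75466 transcripts, 73164 (96.95%), with 98.31% to 98.57% of the counts, were matched to 22092 genes of GENCODE M21, and 2302 were left out. Reads were counted on every transcript they overlapped, so a single transcript stands for a gene, the one of highest total CPM over the libraries. Exons of opposite-strand genes in the annotation also overlap up to 116 of 2792 bases of Glul and 166 of 11595 bases of Slc1a2, which the counts do not separate.

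The main test was the quasi-likelihood test of edgeR 4.0.16 (filterByExpr, TMM, glmQLFit and glmQLFTest, in R 4.3.3) on all 9 libraries, adjusted by the Benjamini-Hochberg method over all genes tested. Normalized CPM are TMM-scaled. The SE was derived from the log2 fold change and F. Ratios used counts plus 0.5. The code was tested on simulated data, once with equal and once with unequal dispersion in the groups. The unequal setting was close to the common dispersion of these data, 0.725 in endfeet and 0.0141 in whole astrocyte TRAP. How many unchanged genes were called in that setting is not given here. Alternatives used DESeq2 1.42.0, limma 3.58.1 (voom, a weight per group), other filters and scalings, and subsets of libraries and transcripts. The subtraction of antisense counts and the transcripts without most of the last exon were chosen after seeing the data. The members and lists were chosen with earlier results of these data known. Genes named are the 7 members, the listed pathway genes (2 of the list are not reported here and were left out of its counts), markers, and the 2 genes nearest each member. 4430402I18Rik was named outside this rule after its values were seen. Whether same-numbered libraries of the groups deviate together was checked (correlations of -0.0345 to 0.0330 over 3 pairs), and they do not pair.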

Additional observations from a re-analysis of the deposited data

How the results depend on the processing

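Glul, Slc38a3 and Slc6a11 kept direction and side of the threshold under every alternative run, with log2 fold changes of -3.47 to -3.10, 1.36 to 1.85 and 0.02 to 0.68. Slc1a1 stayed called at 2.43 to 4.23 except in the transcript without most of the last exon (2.96, edgeR adjusted p = 0.109). Slc1a2 passed with limma voom and group weights (0.79, adjusted p = 0.00471), the number series as covariate (1.23, edgeR adjusted p = 0.0359), endfeet libraries 4 to 6 (1.10) and thinned libraries (1.03, edgeR adjusted p = 0.0425), and ranged from 0.67 to 1.11 with a library left out, over adjusted p of 0.00471 to 0.520 in all. Slc1a4 passed with the covariate (1.32) and with endfeet libraries 4 to 6 (1.19). These settings gave 4 members called higher in place of 2. Slc1a3 turned to -0.31 in its transcript without most of the last exon. The causes were not tested.

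With the replicate number as a block, although the numbers do not pair the libraries, Slc1a3 was -0.21 (edgeR adjusted p = 0.723), Slc1a4 -0.01 (-0.0093, edgeR adjusted p = 0.985) and Slc1a2 0.38 (edgeR adjusted p = 0.520). Lower pathway genes numbered 6 to 12 with a library left out. Over all genes, leaving out a library gave 1874 to 3380 higher and 1171 to 2642 lower, fewest without a whole astrocyte library, and voom gave 4485 lower. Against Slc1a2, leaving out a library moved the log2 difference of Glul between -4.26 and -4.04, of Slc1a3 between -0.71 and -0.62, of Slc1a1 between 1.81 and 2.53 (it passed without endfeet library 5), and of Slc1a4 between -0.34 and 0.030 (reversed without endfeet library 1). Fewer splits then exist, so that Glul and Slc1a3 passed in 1 of 9 such fits, with exact permutation adjusted p of 0.0357 to 0.107. With the geometric mean as reference, which includes the lower Glul, the differences were 2.93 for Slc1a1, -0.36 for Slc1a3, 0.22 for Slc1a4 and 1.40 for Slc38a3. Against Slc1a2, summed transcripts gave 2.28 for Slc1a1. The depth of endfeet library 6 limits scarce mRNAs most.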
